A study of Mus musculus with 10 samples.

Results

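The fibrillar collagen genes described here are the 8 members Col1a1, Col1a2, Col3a1, Col5a1, Col5a2, Col5a3, Col11a1 and Col11a2, taken by symbol as the genes of the type I, III, V and XI chains. All 8 were listed among the 31053 genes of the single-cell matrices. The rule uses names only, but it was written with earlier results of these data known. The samples came from the enthesis of the mouse supraspinatus tendon, the place where this shoulder tendon enters bone. Wild-type C57BL/6 mice gave 3 droplet libraries, 1 each at postnatal day 11 (P11), P18 and P56, from pooled entheses whose red blood cells had been lysed and whose living (DAPI-negative), Cd45-negative cells had been sorted. Gli1CreERT;Ai14 mice gave 7 plates of sorted cells, 1 at each of the ages P7, P11 and P14, then P18 and P21, then P28 and P42. All of these animals received tamoxifen at P5 and P7. That treatment lets a Cre driven by the Gli1 gene switch on a red fluorescent reporter, so that cells which used Gli1 in that window, and their daughters, stay marked. The labels' wording of the plate sort does not settle whether red cells were kept or removed, and the ages it names do not include P14.

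Fibrillar collagens are built from 3 chains wound into a rope-like helix, which are cut free of their end pieces outside the cell and then line up into fibrils. The type I fibril, made of Col1a1 and Col1a2 chains, carries the load in tendon and bone. Type III joins it in loose and healing tissue, types V and XI sit at the start of a fibril and limit its width, and type XI, with type II, is the form known from cartilage. The enthesis passes from tendon through fibrocartilage to bone, so it holds cells of each of these matrices.

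The genes lie on 7 chromosomes of the mouse build mm10. Col1a1 is at chr11:94936224-94953042 and Col1a2 at chr6:4504814-4541544, both on the plus strand. Col3a1 (chr1:45311538-45349706, plus strand) and Col5a2 (chr1:45374321-45503282, minus strand) are neighbours, with 24614 bases and 0 annotated genes between them. Col5a1 is at chr2:27886425-28039514 (plus), Col5a3 at chr9:20770050-20815067 (minus), Col11a1 at chr3:114030540-114220718 (plus) and Col11a2 at chr17:34039437-34066685 (plus). The bases before the transcription start are printed for 5 members. The window of Col1a2 overlaps an annotated untranslated region, and no window was found for Col1a1 and Col5a2. Among those printed, Col3a1 and Col5a1 had nearly the same order of levels over cell groups, as did Col11a1 and Col11a2, while Col5a3 stood apart. Each stretch holds the 120 bases before the RefSeq start on GRCm38.p6, written 5′ to 3′ on the gene's strand, with matches on either strand to the CCAAT motif, the TATAAA motif and the GGGCGG motif in capitals. The RefSeq start of Col11a2 lies upstream of the gene start given above.
Col3a1, chr1:45311418-45311537, plus strand: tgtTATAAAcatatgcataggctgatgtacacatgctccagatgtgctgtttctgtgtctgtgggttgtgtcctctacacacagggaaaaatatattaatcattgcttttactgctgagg
Col5a1, chr2:27886305-27886424, plus strand: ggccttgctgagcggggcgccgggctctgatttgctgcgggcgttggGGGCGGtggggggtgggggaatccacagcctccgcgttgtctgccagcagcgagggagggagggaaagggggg
Col5a3, chr9:20815068-20815187, minus strand: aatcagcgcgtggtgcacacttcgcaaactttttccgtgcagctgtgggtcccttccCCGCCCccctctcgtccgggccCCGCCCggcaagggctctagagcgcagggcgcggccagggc
Col11a1, chr3:114030420-114030539, plus strand: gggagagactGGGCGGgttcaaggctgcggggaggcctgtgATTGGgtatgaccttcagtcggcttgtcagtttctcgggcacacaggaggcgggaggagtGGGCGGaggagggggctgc
Col11a2, chr17:34039018-34039137, plus strand: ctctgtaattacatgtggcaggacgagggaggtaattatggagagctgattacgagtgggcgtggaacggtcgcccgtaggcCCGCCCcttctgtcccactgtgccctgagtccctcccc

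Col3a1 and Col5a1 differed most in base content over the 250 bases before the start, with 35.2% G or C in Col3a1 and 76.4% in Col5a1. The shares were 62.8% for Col5a3, 62.4% for Col11a1 and 57.6% for Col11a2. RefSeq windows were found for 6 of the 8 members, the 5 printed and Col1a2. Within 250 bases, GGGCGG or its reverse complement CCGCCC was found in 5 of these 6, all but Col3a1, and in 32.7% of all 32851 mouse promoter windows. TATAAA or TTTATA was found in Col3a1 and Col11a2, and in 12.4% of all windows. CCAAT or ATTGG was found in Col1a2, Col5a3 and Col11a1, and in 33.8% of all windows. A match gives letters only and does not show a factor's binding.

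The droplet libraries held 44104990 (P11), 53725468 (P18) and 40082499 (P56) counts of unique molecular identifiers (UMIs, single captured transcripts), and 2882, 5163 and 4920 cells were used, with median depths of 13433, 7165 and 6078.5 UMIs. They shared between 2 and 8 cell barcodes a pair. Plate totals ran from 240498 (P28) to 507431 (P14) counts over 86 to 96 wells used. Each age is 1 library, so age and library cannot be told apart, no droplet comparison between ages has a test, and intervals cover counting error only. No authors' cell annotation was used. Cells were sorted into ranges of a transcript: Tnmd cells held at least 2 UMIs of Tnmd (tenomodulin, a tendon cell marker), Pdgfra cells at least 2 of Pdgfra (a receptor of connective tissue fibroblasts) and Matn1 cells at least 2 of Matn1 (matrilin 1, a cartilage matrix protein). Cells that met more than 1 of these limits, or held Pecam1, Cdh5 or Ptprc transcripts, were left out. These ranges are not cell types. At the limit of exactly 2 UMIs stood 3.49%, 11.3% and 20.2% of Tnmd cells and 16.3%, 36.6% and 37.2% of Pdgfra cells at P11, P18 and P56.

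The names were checked against marker lists of 6 genes, summed as CPM (counts scaled to a common total of 1e+06 UMIs in each group). The tendon list stood at 16058, 7430 and 16572 CPM in Tnmd cells at P11, P18 and P56, against 588 to 1004 CPM in Pdgfra cells. The fibroblast list stood between 5037 and 5888 CPM in Pdgfra cells, and the cartilage list at 17049 (P11) and 14353 (P18) CPM in Matn1 cells. Other lists moved with age inside the groups. The cartilage list was at 707, 1673 and 17.0 CPM and the osteoblast list at 501, 4467 and 10.4 CPM in Tnmd cells, and at 206, 1349 and 23.3 CPM and 166, 4648 and 237 CPM in Pdgfra cells. Most age differences of the members are therefore also given without cells that carried at least 2 UMIs of the osteoblast or cartilage lists. This alternative was chosen after the data were seen. It left 300, 137 and 963 of 888, 398 and 985 Tnmd cells, and 494, 97 and 909 of 583, 145 and 937 Pdgfra cells. The limit is a raw count, which a deeper cell reaches more easily. Median depths were 14428.5, 9989 and 5863 UMIs in Tnmd cells and 14585, 9112 and 8159 in Pdgfra cells. The part of depth in this alternative was not tested, and no share of all genes was computed for the cells it left.

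In Tnmd cells, 7 of the 8 genes were at least 2-fold lower at P56 than at P11, and Col5a3 was 2.24-fold higher. Without the cells of the osteoblast and cartilage lists the count was 7 lower and 0 higher, with no share of all genes computed. Of the 9452 genes with at least 100 UMIs in the whole group, 7.49% were at least 2-fold lower and 11.8% at least 2-fold higher. The median log2 difference was -2.26 over the 8 members and 0.15 over all genes. The 8 genes held 18.0% of all UMIs of Tnmd cells at P11, 9.72% at P18 and 2.26% at P56. With CPM taken over all other genes, the median of all genes became -0.10 and the shares 11.2% lower and 7.88% higher, while the same 7 members stayed at least 2-fold lower and Col5a3 stood at 0.91 on the log2 scale.

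The type I chains had the largest differences with age of the 8 genes over all Tnmd cells, although among the cells left without the osteoblast and cartilage lists Col3a1 (-2.49) passed Col1a2 (-2.39). Col1a1, which supplies the α1 chain of the main tendon fibril, stood at 96935 CPM (95% interval 96767 to 97104) at P11, 53066 (52843 to 53290) at P18 and 10325 (10245 to 10405) at P56 in Tnmd cells. The intervals of the 3 ages lay far apart, and the P56 level was 9.39-fold lower than at P11 (log2 difference -3.23, -3.24 to -3.22). Col1a2, its partner chain, stood at 73877, 36278 and 10064 CPM, 7.34-fold lower at P56 (-2.88, -2.89 to -2.86). With the cells of the osteoblast and cartilage lists left out, Col1a1 stood at 67853, 56257 and 10242 CPM, so the P11 level was lower and the difference to P56 was -2.73.

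Col3a1, the chain of type III collagen, differed little between P11 and P18 and was lower at P56. It stood at 4366 (4330 to 4402), 4564 (4499 to 4630) and 998 (974 to 1023) CPM in Tnmd cells, a difference of 0.06 to P18 and 4.37-fold lower at P56 than at P11 (-2.13, -2.17 to -2.09). The type I chains differed by -0.87 (Col1a1) and -1.03 (Col1a2) on the log2 scale between P11 and P18. This contrast was not seen with the cells of the osteoblast and cartilage lists left out: Col3a1 then stood at 5669, 4878 and 1008 CPM, and its difference from P11 to P18 was -0.22 (-0.26 to -0.18), beside -0.27 for Col1a1 and -0.58 for Col1a2.

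The first pair of type V chains followed the same order as Col3a1. Col5a1, the main chain of type V collagen, stood at 357, 385 and 128 CPM, 2.80-fold lower at P56 (-1.48, -1.59 to -1.38). Col5a2, its usual partner, stood at 1034, 1167 and 421 CPM, 2.46-fold lower at P56 (-1.30, -1.36 to -1.24). Between P11 and P18 they differed by 0.11 and 0.17 on the log2 scale, and in the other direction, by -0.33 (-0.49 to -0.17) and -0.31 (-0.41 to -0.21), without the cells of the osteoblast and cartilage lists.

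Col5a3, a rarer chain of type V, went the other way, at low counts. It stood at 33.3 (30.3 to 36.6), 8.82 (6.18 to 12.2) and 74.7 (68.1 to 81.8) CPM in Tnmd cells, so P56 was highest and P18, with 36 UMIs in all, lowest. At P11 this level was 0.842 times (0.601 to 1.21) that of endothelial cells, while leukocytes held 0.281 CPM, from 1 UMI. Whether these P11 transcripts are background thus depends on the group set beside them. The endothelial level may also hold transcripts of the endothelial cells' own or of other cells, which was not tested. Without the cells of the osteoblast and cartilage lists it stood at 67.4, 17.2 and 75.5 CPM, and the log2 difference from P11 to P56 was 0.16 (-0.07 to 0.40) in place of 1.16. The higher level at P56 was thus not seen among the remaining cells, while the low level at P18 was.

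The type XI chains, named for cartilage, were present in Tnmd cells at every age. Col11a1 stood at 1952, 1140 and 373 CPM, 5.23-fold lower at P56 (-2.39, -2.45 to -2.33). Col11a2 stood at 1083, 618 and 169 CPM, 6.43-fold lower at P56 (-2.68, -2.78 to -2.59). Col11a1 still stood at 1548, 602 and 365 CPM without the cells of the osteoblast and cartilage lists. Between P11 and P18, 2 of 8 members were at least 2-fold lower in Tnmd cells (Col1a2 and Col5a3; 4.39% of genes) and 0 were at least 2-fold higher (5.71% of genes). Without the cells of the osteoblast and cartilage lists 3 were lower, Col5a3, Col11a1 (-1.36) and Col11a2 (-1.24), and Col1a2 (-0.58) was not among them.

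**Figure D1:**
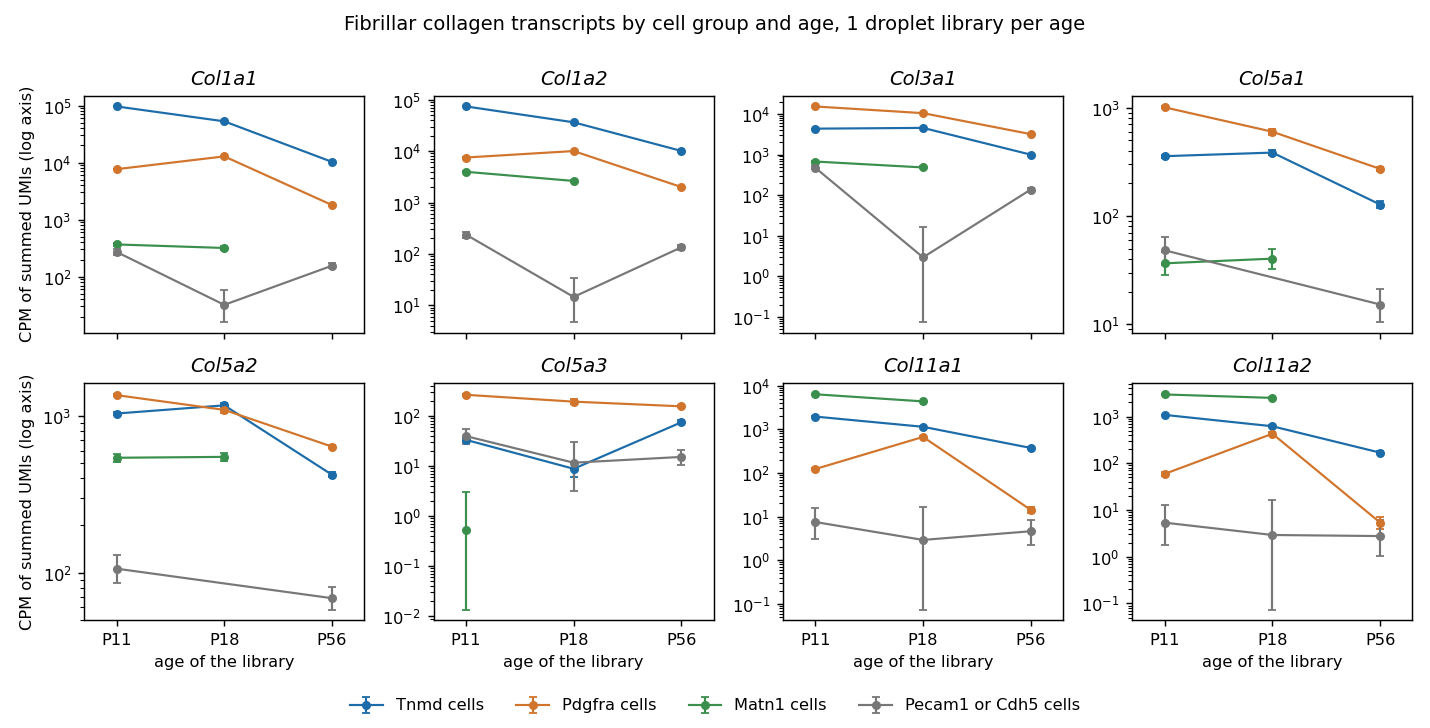
Levels of the 8 fibrillar collagen genes in Tnmd, Pdgfra and Matn1 cells and in endothelial cells (Pecam1 or Cdh5) of the 3 droplet libraries, as CPM on log axes against age. Bars are exact 95% Poisson intervals, and groups with 0 UMIs have no point. In Tnmd cells Col1a1 goes from 96935 to 10325 CPM between P11 and P56, while Col5a3 is at 33.3, 8.82 and 74.7 CPM.

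Pdgfra cells held another mix, with Col3a1 above Col1a1 in UMIs at P11 and P56. At P56, 7 of the 8 genes were at least 2-fold lower than at P11 (7.94% of 9691 genes) and 0 were at least 2-fold higher (4.06%). The count was 6 and 0 without the cells of the osteoblast and cartilage lists, where Col11a2 stood at -0.71 (-1.51 to 0.07) in place of -3.46, and Col11a1 at -1.25 in place of -3.11. The median log2 difference was -2.00 over the members and -0.17 over all genes. Between P11 and P18, 0 members were at least 2-fold lower (7.42% of genes) and 2 were at least 2-fold higher (2.74%), Col11a1 and Col11a2, against 0 in each direction without those cells.

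Col3a1 stood at 15407 (15327 to 15488), 10541 (10374 to 10710) and 3197 (3161 to 3233) CPM in Pdgfra cells. It was lower at each later age, and 4.82-fold lower at P56 than at P11 (-2.27). Col5a1 went the same way, at 1008, 600 and 272 CPM (-1.89, -1.95 to -1.83). Col5a2 stood at 1356, 1092 and 636 CPM (-1.09, -1.14 to -1.05), the least difference of the 7 genes that passed the 2-fold limit. Without the cells of the osteoblast and cartilage lists Col3a1 stood at 16377, 15264 and 3181 CPM. From P11 to P18 it then differed by -0.10 (-0.13 to -0.08), in place of -0.55. Col5a1 differed by -0.52 in place of -0.75, and Col5a2 by -0.34 in place of -0.31.

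Col5a3 was at its highest in Pdgfra cells. It stood at 265 (254 to 275), 193 (171 to 217) and 156 (148 to 164) CPM, 6.68-fold above endothelial cells at P11. Its log2 difference from P11 to P56, -0.76 (-0.86 to -0.67), did not reach 2-fold. Without the cells of the osteoblast and cartilage lists Col5a3 stood at 288, 288 and 157 CPM. The P11 to P18 difference was then -0.0003 (-0.19 to 0.18), in place of -0.45.

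The type I chains were highest at P18 in this group. Col1a1 stood at 7684, 12885 and 1806 CPM and Col1a2 at 7499, 10014 and 1999 CPM, so that P18 exceeded P11 by 0.75 and 0.42 on the log2 scale. The osteoblast list was 4648 CPM in these 145 cells at P18, against 166 at P11. Without the cells of the osteoblast and cartilage lists Col1a1 stood at 7325, 6015 and 1647 CPM, and the difference from P11 to P18 was -0.28 (-0.32 to -0.24) for Col1a1 and -0.39 (-0.43 to -0.35) for Col1a2. Those chains were then lower at each later age, as Col3a1 was.

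The type XI chains showed the same dependence, more strongly. Col11a1 stood at 123, 668 and 14.2 CPM and Col11a2 at 59.2, 428 and 5.38 CPM in Pdgfra cells, 5.45-fold and 7.23-fold higher at P18 than at P11. Most of the P18 transcripts lay in a few cells: 41 Pdgfra cells with a transcript of Acan, the cartilage proteoglycan aggrecan, held 2116 CPM of Col11a1 and the other 104 held 94.7. Without the cells of the osteoblast and cartilage lists, Col11a1 stood at 19.5, 13.8 and 8.23 CPM, with a P11 to P18 difference of -0.49 (-1.44 to 0.32), and Col11a2 at 4.55, 5.33 and 2.78 CPM, with 0.23 (-1.48 to 1.58). Neither interval excludes 0, and the higher level at P18 was not seen among the remaining 97 cells. Endothelial cells held 7.49, 2.91 and 4.61 CPM of Col11a1, below the remaining Pdgfra cells at each age. Of Col11a2 they held 5.35, 2.91 and 2.76 CPM, close to the remaining Pdgfra cells at P11 and P56. The P18 endothelial values rest on 1 UMI each, and no interval was computed for these comparisons.

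**Figure D2:**
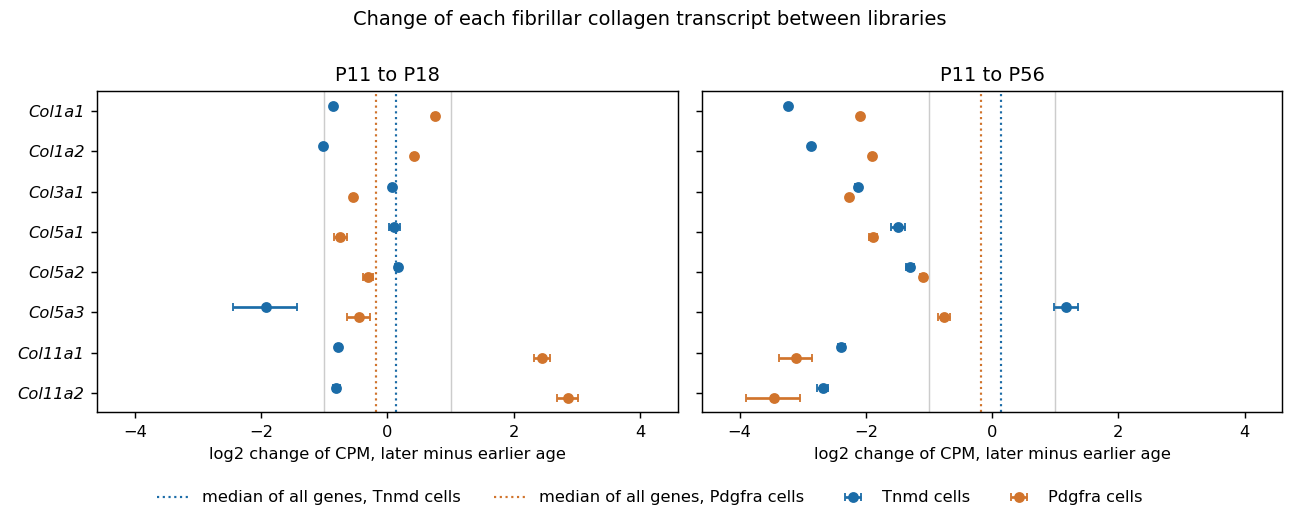
Log2 difference of each fibrillar collagen gene between libraries within Tnmd and Pdgfra cells, later minus earlier age, with exact 95% intervals that cover counting error only. Grey lines mark 2-fold and dotted lines the median of all genes. Col1a1 lies at -3.23 in Tnmd cells between P11 and P56, and Col11a1 at 2.45 in Pdgfra cells between P11 and P18.

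Matn1 cells, found at P11 (101 cells) and P18 (147 cells), had the cartilage pattern, rich in type XI and poor in Col1a1. No cell met the Matn1 limit at P56. Of the 7 members with at least 100 UMIs in this group, 0 were at least 2-fold lower (1.17% of 3519 genes) and 0 at least 2-fold higher (3.67%) at P18 than at P11. The median log2 difference was -0.24 over these members and 0.10 over all genes.

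Col11a1 stood at 6338 (6224 to 6453) and 4351 (4267 to 4436) CPM in Matn1 cells at P11 and P18, and Col11a2 at 2963 and 2502 CPM. The Col11a1 level in Tnmd cells at P11 was 0.308 of that in Matn1 cells. The other type XI partner in cartilage, the type II chain Col2a1, stood at 83188 and 53416 CPM.

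Matn1 cells were low in Col1a1 and less so in Col1a2, although the 2 chains form 1 protein elsewhere. Col1a1 stood at 368 (341 to 396) and 319 (296 to 343) CPM in Matn1 cells, and Tnmd cells held 264-fold more at P11. Endothelial cells, set beside them as background, held 272 CPM at P11, so the Matn1 level was 1.35-fold (1.17 to 1.57) theirs, and 3.40-fold (2.99 to 3.86) that of leukocytes. At P18 both were lower, with 32.1 CPM in the endothelial group and 42.0 in leukocytes. Col1a2 stood at 3957 (3867 to 4049) and 2625 (2560 to 2691) CPM, 16.7-fold (14.6 to 19.1) above endothelial cells at P11. Tnmd cells held 18.7-fold (18.2 to 19.1) more Col1a2 than Matn1 cells at P11, and 13.8-fold more at P18.

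Col5a2 and Col5a1 were split in the same way in these cells. Col5a2 stood at 540 and 547 CPM, while Col5a1 stood at 36.5 and 40.3 CPM, the first below the 48.2 CPM of endothelial cells and 6.83-fold (4.06 to 12.0) above leukocytes at P11, and the second above the 0.681 CPM of leukocytes at P18. Col3a1 stood at 674 and 482 CPM. Col5a3 gave 1 UMI at P11 and 0 at P18, which allows up to 1.27 CPM.

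Endothelial and leukocyte groups were used as a measure of background, although their collagen transcripts need not all come from free RNA. The 8 genes together made 0.119%, 0.0067% and 0.0534% of UMIs in endothelial cells (77, 43 and 401 cells with at least 2 UMIs of Pecam1 or Cdh5) and 0.0299% and 0.0124% in leukocytes (268 and 1314 cells with at least 2 of Ptprc). Col1a1 stood at 272, 32.1 and 156 CPM in endothelial cells and at 108 and 42.0 CPM in leukocytes. Col3a1 stood at 473 CPM in endothelial cells at P11, although 74.0% of these cells held none, and at 39.4 CPM in leukocytes. The P18 endothelial group carried more of the leukocyte list (1930 CPM) than of the endothelial list (816 CPM), so its values are doubtful. Endothelial cells also carried 1233 (P11) and 2358 (P56) CPM of the fibroblast list, which includes Cd34 and Ly6a. Of the mural (vessel wall) list they carried 1599 and 843 CPM, against 247 to 385 CPM in Tnmd and Pdgfra cells at these ages. The sums do not tell transcripts of other cells from the endothelial cells' own, and their part in the collagen level was not tested.

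Between groups at P11 the members split by type. Tnmd cells held 12.6-fold more Col1a1, 9.85-fold more Col1a2, 15.9-fold more Col11a1 and 18.3-fold more Col11a2 than Pdgfra cells. The other 4 genes were lower in Tnmd cells, at 0.283 (Col3a1), 0.354 (Col5a1), 0.763 (Col5a2) and 0.126 (Col5a3) of the Pdgfra level. For Col1a1 the order from high to low was Tnmd, Pdgfra, Matn1, endothelial and leukocyte cells, with Matn1 and endothelial cells close together. For Col3a1 it was Pdgfra, Tnmd, Matn1, endothelial and leukocyte cells.

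Ratios of UMIs between 2 members in the same cells do not depend on the other genes of the library. The values compare a ratio between groups and ages and do not give the molar mix of chains, since the 3′-end reads of each gene are captured with their own yield. In Tnmd cells the Col3a1 to Col1a1 ratio was 0.0450 (0.0447 to 0.0454), 0.0860 and 0.0967 at P11, P18 and P56, a log2 difference of 1.10 (1.06 to 1.14) between the first and last. Most of that difference was not seen without the cells of the osteoblast and cartilage lists, where the ratio was 0.0836, 0.0867 and 0.0984, a log2 difference of 0.24. In Pdgfra cells the ratio was 2.01, 0.818 and 1.77, and 2.24, 2.54 and 1.93 without those cells.

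The Col5a1 to Col1a1 ratio was higher at each later age in Tnmd cells, at 0.00368, 0.00726 and 0.0124, 3.36-fold from P11 to P56. Leaving out the cells of the osteoblast and cartilage lists gave 0.00590, 0.00566 and 0.0123, so the difference lay between P18 and P56. In Pdgfra cells it was 0.131, 0.0466 and 0.151.

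Partner chains kept closer ratios. The Col1a2 to Col1a1 ratio was 0.762, 0.684 and 0.975 in Tnmd cells and 0.976, 0.777 and 1.11 in Pdgfra cells. Matn1 cells lay far from both, at 10.8 (9.95 to 11.7) and 8.23 (7.63 to 8.89), with Col1a1 close to the endothelial level at P11. The Col11a2 to Col11a1 ratio stayed between 0.378 and 0.640 over all 3 groups and ages, the narrowest range of the partner pairs.

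The type V partners varied more. The Col5a2 to Col5a1 ratio was 2.90, 3.03 and 3.30 in Tnmd cells and 1.34, 1.82 and 2.34 in Pdgfra cells. In Matn1 cells it was 14.8 (11.6 to 19.2) and 13.6 (11.0 to 16.9), with Col5a1 not separated from the endothelial level at P11. The Col5a3 to Col5a1 ratio was 0.0935, 0.0229 and 0.586 in Tnmd cells and 0.262, 0.322 and 0.572 in Pdgfra cells, so the groups came close at P56.

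**Figure D3:**
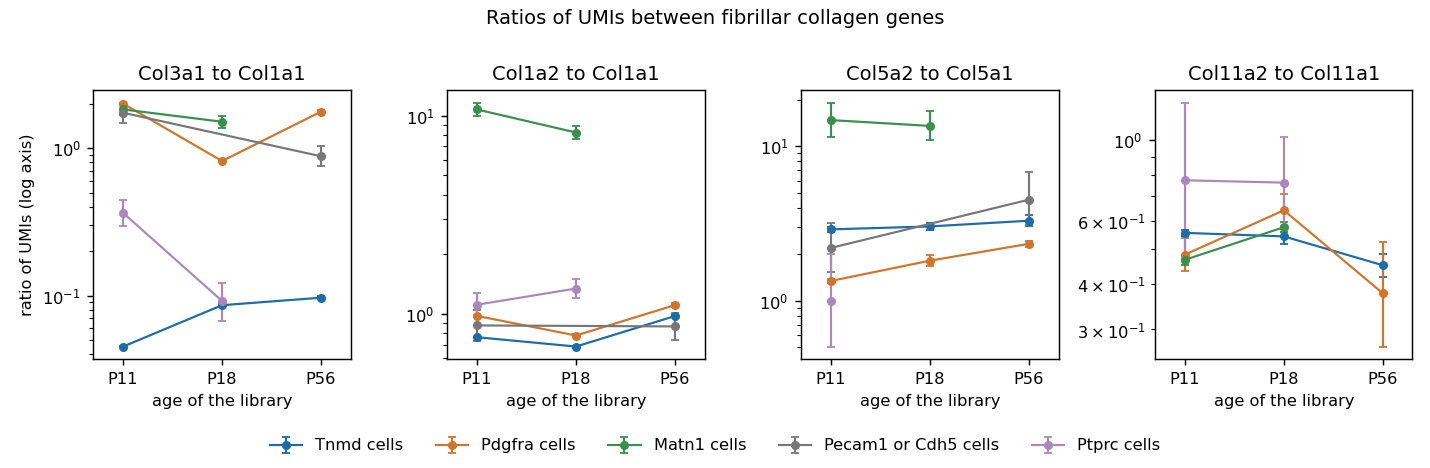
UMI ratios of fibrillar collagen genes in Tnmd, Pdgfra, Matn1, endothelial (Pecam1 or Cdh5) and leukocyte (Ptprc) cells by age, on log axes, with exact 95% intervals, for groups with at least 10 UMIs of each gene. The Col1a2 to Col1a1 ratio lies at 10.8 in Matn1 cells at P11 against 0.762 in Tnmd cells.

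The sums hid a wide spread between cells. Tnmd cells held a median of 891 Col1a1 UMIs per 10000 UMIs at P11, with 10th and 90th percentiles of 171 and 1609. The medians at P18 and P56 were 447 (114 to 950) and 81.5 (20.4 to 224), so the 90th percentile at P56 lay near the 10th at P11. Pdgfra cells held medians of 61.3, 44.2 and 11.6. At the median, then, P18 did not exceed P11, unlike in the sum.

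Matn1 cells carried Col1a2 more widely than Col1a1. The median Col1a1 level was 0.871 UMIs per 10000 at P11 and 0 at P18, with 19.8% and 64.6% of the cells holding none, while the median of Col1a2 was 22.6 and 11.4. With each cell thinned to 2000 UMIs, 31.3% and 12.2% of Matn1 cells held a Col1a1 UMI, against 22.7% and 9.52% of endothelial cells. A Col1a2 UMI was held by 76.8% and 65.3% of thinned Matn1 cells.

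The share of type III among type I and III transcripts differed between most Tnmd and most Pdgfra cells, with some overlap. At P18 the 10th percentile of Pdgfra cells was 16.8% and the 90th of Tnmd cells 33.9%. Cells past more than 1 limit, 383, 72 and 149 at P11, P18 and P56, had been left out and have no share here. Col3a1 made a median of 3.24%, 5.57% and 4.07% of the Col3a1 and Col1a1 UMIs of a Tnmd cell at P11, P18 and P56, and 70.0%, 69.5% and 63.3% of those of a Pdgfra cell. Only cells with at least 10 UMIs of both genes together entered these shares. More Col3a1 than Col1a1 UMIs were held by 5.19%, 3.77% and 4.30% of Tnmd cells and 92.9%, 75% and 73.5% of Pdgfra cells. The median share of Tnmd cells was thus higher at P18 than at P11, as was the ratio of sums, and lower again at P56. The ratio of sums, which cells rich in Col1a1 weigh most, went from 0.0450 at P11 to 0.0967 at P56. A share of 0 was found in 0.564% of these Tnmd cells at P11 and 26.6% at P56. Median depths of Tnmd cells were 14428.5 and 5863 UMIs, and the part of depth in the P56 median was not tested.

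At P11, but not at P18, Tnmd cells with a transcript of Acan held more Col1a1 than those without. At P11, 654 cells with Acan held 106066 CPM of Col1a1 and 234 without held 55513, with median depths of 16270 and 9810.5 UMIs. At P18 the levels were 52256 CPM with Acan and 55157 without, at depths of 10324 and 9107 UMIs, and the part of depth in the split was not tested. Col3a1 went the other way at P11, with 3946 and 6270 CPM, as did Col5a3, with 20.9 and 89.8 CPM.

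Across cells thinned to 2000 UMIs, as a description, Col1a1 and Col1a2 went together in Tnmd cells. Spearman's rank correlation was 0.89, 0.81 and 0.89 at P11, P18 and P56. Col1a1 and Col3a1 did not go together in Tnmd cells (rank correlation -0.39, -0.09 and -0.10) and did in Pdgfra cells (0.61, 0.34 and 0.49). The same thinning gave a Col5a3 UMI in 5.81%, 2.02% and 12.2% of Tnmd cells, against 25.5%, 6.03% and 29.0% without thinning, and in 5.33%, 2.38% and 2.62% of thinned endothelial cells, so only the P56 share of Tnmd cells stood clear of the endothelial share. For Col3a1 the thinned share was 90.8%, 89.4% and 53.1% of Tnmd cells.

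**Figure D4:**
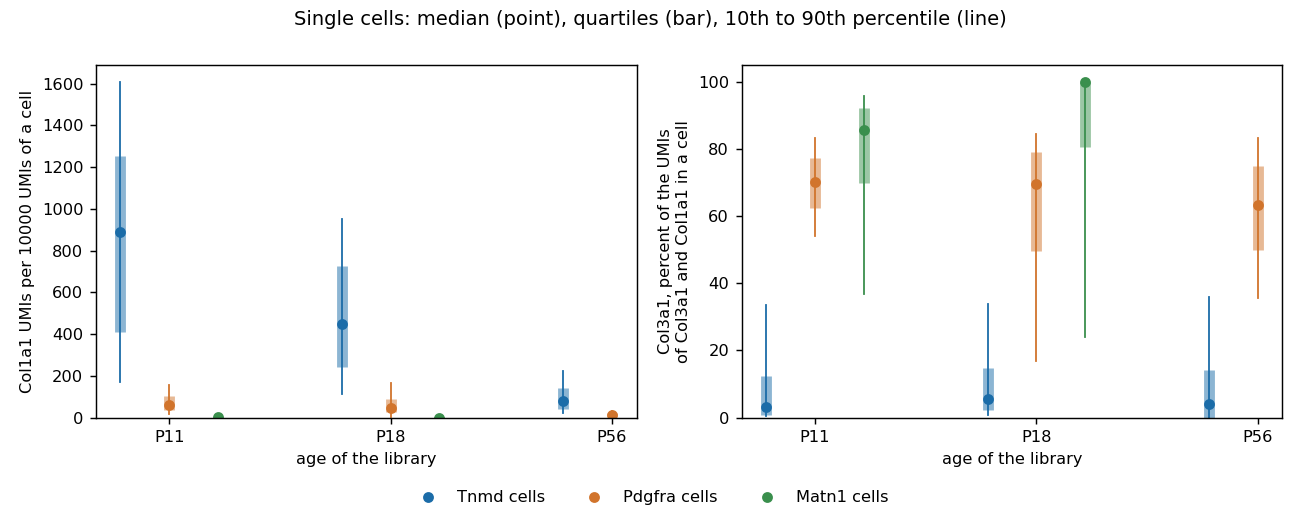
Spread over single cells of the Col1a1 level (UMIs per 10000 UMIs) and of the Col3a1 share of Col3a1 and Col1a1 UMIs, in Tnmd, Pdgfra and Matn1 cells by age. Points are medians, bars quartiles and lines the 10th to 90th percentiles. The median Col1a1 level of Tnmd cells goes from 891 at P11 to 81.5 at P56, while their median Col3a1 share stays between 3.24% and 5.57%.

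Over the 13 profiles of a group at an age with at least 20 cells, some members went closely together. The levels, as log2(CPM + 1), correlated at r = 0.997 for Col11a1 and Col11a2, 0.994 for Col3a1 and Col5a1 and 0.939 for Col1a1 and Col1a2, and at -0.156 for Col5a3 and Col11a1. Of 12629 genes, those most like Col1a1 were Mettl24 (r = 0.964), Mme (0.960), Cmya5 (0.957), Chrd (0.951) and Six2 (0.949). Those most like Col11a1 were Kcnk1 (0.987), Gm29157 (0.982), Tmem42 (0.968), Kcna6 (0.967) and Ucma (0.967). These are descriptions over profiles that share 3 libraries.

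Other genes of the collagen pathway were taken from 8 lists of 61 genes, chosen with earlier results of these data known. In Tnmd cells 57 had at least 100 UMIs, of which 24 were at least 2-fold lower at P56 than at P11, 6 at least 2-fold higher and 27 neither, with a median log2 difference of -0.76. The 7.49% and 11.8% above are the shares of all genes. In Pdgfra cells 19 of 55 were lower, 1 was higher and the median was -0.65. In Matn1 cells, between P11 and P18, 1 of 43 was lower (the fibril-binding proteoglycan Fmod, -1.05) and 0 higher.

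The other fibrillar and fibril-associated collagens were lower in both groups, 7 of 9 in Tnmd cells and 8 of 8 in Pdgfra cells. Col2a1, the cartilage fibril chain, stood at 6468 CPM at P11 and 11.5 at P56 in Tnmd cells. Col9a3, a chain of the type IX collagen that coats type II fibrils, gave 1756 UMIs at P11 and 2 at P56. In Pdgfra cells the largest differences were those of Col9a3 (-7.36) and Col9a1 (-6.94). The cartilage marker list, too, was low in both groups at P56, at 17.0 and 23.3 CPM, and its part in these differences was not tested.

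The enzymes and chaperones that modify and fold the chains were the largest list, with 10 of 18 lower and 0 higher in Tnmd cells. Sparc, a collagen-binding protein of the matrix, went from 43999 to 10323 CPM (-2.09), and Crtap, a part of the prolyl 3-hydroxylase complex, from 361 to 96.0 (-1.91). P3h2 (0.37) and Plod3 (0.19), hydroxylases of proline and lysine, had the highest differences and stayed within 2-fold. In Pdgfra cells 4 of 18 were lower, with P3h1 at -1.58 and Crtap at -1.45 the lowest, and P3h2 (0.39) and Plod3 (0.37) again the highest.

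Secretion and regulation genes were mixed, with 1 of 5 lower and 2 higher in Tnmd cells. Creb3l1, a transcription factor of the secretory pathway, was at -1.62 and the coat protein gene Sec24d at -0.38. Larp6, which binds the messenger RNA of type I collagen, was at 1.71 and Tmem38b, an ion channel gene of the endoplasmic reticulum, at 1.02. None of the 5 passed 2-fold in Pdgfra cells, where Creb3l1 was at -0.44, Tmem38b at -0.24 and Larp6 at 0.85.

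The genes that cut off the end pieces gave 1 of 5 lower and 1 higher in Tnmd cells. Bmp1, the protease that removes the C-terminal piece, was at -1.54, and its enhancers Pcolce and Pcolce2 were at -0.76 and 1.17. In Pdgfra cells Adamts14 (-2.07) and Bmp1 (-1.23) were lower and Pcolce2 (1.77) was the only pathway gene at least 2-fold higher. Pcolce2 thus passed 2-fold upwards in both groups.

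Among the crosslinking enzymes, Loxl2 (-1.44) and Lox (-0.68) had the lowest and Loxl4 (1.16) the highest difference in Tnmd cells, and Loxl1 (-1.74) and Lox (-0.94) the lowest in Pdgfra cells. Fibril-binding proteoglycans went both ways in Tnmd cells: Bgn (-1.55) and Kera (-1.12) were lower, and Prelp (2.26) and Dcn (1.31) higher. In Pdgfra cells Lum (-1.51) and Kera (-1.16) were lower, while Dcn (0.85) and Prelp (0.81) did not reach 2-fold. Of the receptors, 1 of 5 was lower and 0 higher in each of these groups, with medians of -0.13 and -0.22. The lower gene was Itga2, an integrin chain that binds collagen (-1.92 and -1.41). Of the breakdown genes, 1 of 4 was lower and 0 higher in each group, with medians of -0.32 and -0.85. The lower gene was Mmp14, a membrane-bound collagenase (-1.53 and -1.84).

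The 7 plates of the Gli1-lineage mice gave a second set of ages, as sums over all wells of a plate, in which a shift in the kinds of cell and a shift in level per cell cannot be told apart. Col1a1 stood at 34142, 24579, 18875, 14831, 17048, 19947 and 16205 CPM on the plates in order of age, from P7 to P42. The P7 plate was highest and the P18 plate lowest. Along log2 age its slope was -0.46 (SE 0.20) per doubling of age, with an adjusted p of 0.505 in edgeR's quasi-likelihood test with Benjamini-Hochberg adjustment. Col1a2 stood at 48016, 45246, 33465, 30459, 27055, 35737 and 20597 CPM, with a slope of -0.50 (SE 0.20, adjusted p = 0.492 in the same edgeR test).

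None of the 8 members had a slope at an adjusted p under 0.05, and neither did any of the 4390 genes tested (0%). At an unadjusted p under 0.05 edgeR found 414 genes (9.43%), Col1a1 and Col1a2 among them, and DESeq2 called 109 genes after adjustment, 84 lower and 25 higher with age, 0 of them members. Both type I slopes are therefore not separated from the spread between plates.

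The type III and V chains showed no common direction on the plates. Col3a1 lay between 3685 (P21) and 7941 (P42) CPM, with a slope of -0.03 (edgeR adjusted p = 0.982) whose sign turned in 7 of 17 other fits. Col5a1 stood at 878, 610, 647, 571, 610, 1018 and 1099 CPM (slope 0.10) and Col5a2 between 1085 (P14) and 2147 (P28) CPM (0.08). Col5a3 stood at 93.4, 197, 164, 72.4, 93.6, 46.7 and 358 CPM, with a slope of 0.32 that was -0.72 without the P42 plate.

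The type XI chains were high on the P28 plate. Col11a1 stood at 2134, 778, 1902, 1355, 1681, 2384 and 1355 CPM (slope -0.11). Col11a2 stood at 378, 234, 687, 447, 723, 1468 and 820 CPM, with a slope of 0.64 (SE 0.31, adjusted p = 0.538 by edgeR).

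Of 4 ratios tested along the plates, with a 2-sided exact permutation test that ran through the 5040 possible plate orders, 1 had an adjusted p under 0.05. The Col5a1 to Col1a1 ratio was 0.0257, 0.0248, 0.0343, 0.0385, 0.0358, 0.0510 and 0.0678 from P7 to P42. It was lowest at P7 and P11 and highest at P28 and P42, with Spearman's rank correlation 0.93 (exact permutation p = 0.00675, adjusted 0.0270) and Pearson's r 0.95 (exact permutation p = 0.00238, adjusted 0.00952). Without the P7 and P42 plates r was 0.93. The plate files came in 2 layouts, and with both centred the rank correlation was 0.96 (exact permutation p = 0.0139).

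Within wells of 1 kind, where counts were few, the relation was not called. Among Tnmd wells (at least 1 count of Tnmd) the rank correlation was 0.71 (exact permutation p = 0.0881), among Pdgfra wells (at least 1 count of Pdgfra) 0.0714 (exact permutation p = 0.906), and for the median over wells 0.54 (exact permutation p = 0.236). Col5a1 gave 45 (P28) to 171 (P7) counts in Tnmd wells. In Pdgfra wells it gave 1 count at P7, from 1 well, and 9 at P11, from 7 wells. Such counts cannot show that the relation is absent within a kind of well. The osteoblast list lay between 173 CPM (P7) and 7254 CPM (P21) over the plates, and the part of the mix of wells in the ratio was not tested.

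The other 3 ratios gave no call. The Col3a1 to Col1a1 ratio was 0.173, 0.294, 0.355, 0.453, 0.216, 0.302 and 0.490, with a rank correlation of 0.61 (exact permutation p = 0.167, adjusted 0.333) and r 0.64 (exact permutation p = 0.116), and r was -0.19 without the P7 and P42 plates, so the relation rests on these. The rank correlation was -0.21 (exact permutation p = 0.662) for Col1a2 to Col1a1 and 0.14 (exact permutation p = 0.783) for Col5a2 to Col5a1.

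**Figure D5:**
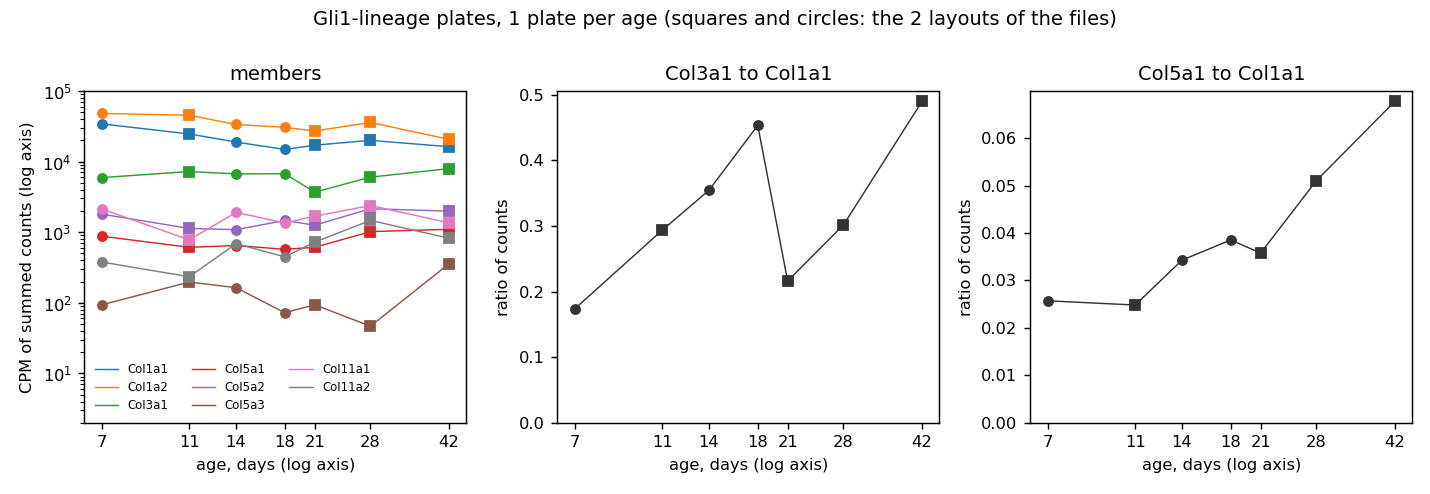
Fibrillar collagen genes over the 7 Gli1-lineage plates: CPM of the sum over wells on a log axis, and count ratios on linear axes from 0, against age in days on a log axis. Each point is 1 plate, and squares and circles mark the 2 file layouts. The Col5a1 to Col1a1 ratio goes from 0.0257 at P7 to 0.0678 at P42.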

How the data were processed

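The droplet matrices and plate tables deposited by the authors hold raw counts per gene and cell, aligned to mm10 per the submitters' processing notes. The droplet matrix headers name software versions 3.1.0 (P11, P18) and 3.0.2 (P56). Whether plate counts were collapsed by UMI is not given in the sources used here. Cells under 500 detected genes or above 10% mitochondrial counts were dropped. Doublets were ranked with Scrublet (scanpy 1.11.5) and the top 0.8% per 1000 cells removed (70, 233 and 211 cells), because its automatic limit marked under 0.1% of each library. Counts of the groups were summed to CPM with exact 95% Poisson intervals, a 0 was set to 3 counts for a limit, and 2-fold limits were applied to genes with at least 100 UMIs. Plates were summed and fitted with edgeR 4.0.16 (TMM, slope on log2 age, at least 10 counts in at least 4 plates), with DESeq2 1.42.0 as an alternative. On simulated plates edgeR recovered 156 of 200 genes given a slope of 1.5 per doubling of age, up or down, with 5 of 161 calls false. The slopes of the members, between -0.50 and 0.64, were smaller, and recovery at such slopes was not simulated. Nothing says that a library holds separate animals, so p-values measure the spread between plates. Depth was 40082499 to 53725468 counts a droplet library. Named genes were all members, pathway genes at the low or high end of their lists, and the 5 genes most like Col1a1 and Col11a1. Some lists had only their lowest genes named. The members, lists and rules were chosen with earlier results of these data known. Alternatives varied the group limits, cell filters, thinning, doublets, scaling and averages.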

Additional observations from a re-analysis of the deposited data

Results flagged for a closer look

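In 5 cases a fibrillar collagen gene differed in opposite directions in Tnmd and Pdgfra cells between the same libraries, by at least 2-fold in 1 of the groups. Col1a1 (-0.87 and 0.75), Col3a1 (0.06 and -0.55), Col5a1 (0.11 and -0.75) and Col5a2 (0.17 and -0.31) also had opposite signs from P11 to P18, within 2-fold. Without the cells of the osteoblast and cartilage lists these genes were lower at P18 in both groups. Col1a1 then stood at -0.27 and -0.28, Col3a1 at -0.22 and -0.10, Col5a1 at -0.33 and -0.52, and Col5a2 at -0.31 and -0.34. None of these differences was tested, since each age is 1 library. From P11 to P18 Col1a2 stood at -1.03 in Tnmd and 0.42 in Pdgfra cells on the log2 scale, a difference of 1.44. Without the cells of the osteoblast and cartilage lists both were lower at P18, at -0.58 and -0.39. Col11a1 stood at -0.78 and 2.45 between these ages, a difference of 3.22, and at -1.36 and -0.49 without those cells. Col11a2 stood at -0.81 and 2.85, a difference of 3.66, and at -1.24 and 0.23 without them. From P18 to P56 Col5a3 stood at 3.08 in Tnmd and -0.31 in Pdgfra cells, a difference of -3.39, and at 2.14 and -0.87 without those cells, so the opposite directions stayed. From P11 to P56 Col5a3 stood at 1.16 and -0.76, a difference of -1.93, and at 0.16 and -0.87 without them.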

How the results depend on the processing

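No paired analysis was possible because no group holds more than 1 sample, so that no replicate numbers link the ages. For single members in the droplet groups (P11 to P56, and P11 to P18 in Matn1 cells), 236 of 245 alternative values over 23 results kept their direction and 0 called values turned. With a 4-fold limit 5 members passed in Tnmd and 4 in Pdgfra cells, and with medians over cells 5 passed in Tnmd cells. In Matn1 cells 1 member, Col1a1 (-1.56), passed 2-fold after thinning. The share of all genes was not computed at these settings, so these counts have no background beside them. The Tnmd difference of the Col3a1 to Col1a1 ratio (1.10) was 0.44 after thinning, 0.90 with groups from marker lists, 1.43 with the stricter cell filter (1000 genes, 5% mitochondrial), 1.24 with no doublets removed, 0.48 as a mean over cells and 0.24 without the cells of the osteoblast and cartilage lists. In Pdgfra cells (-0.18) it was -0.0671 with a limit of 3 UMIs, and in the above order -0.25, -0.30 (stricter filter), -0.22, -0.15 and -0.21. The cause was not tested. On the plates DESeq2 called 109 genes, and 307 without a filter on low counts. The slope of Col3a1 turned to 0.0467 with library totals, 0.0297 with at least 50 counts in every plate, 0.0880 with file layout as a term, 0.000495 per day of age and 0.18 in the wells of the 3 groups, and lay between -0.227 and 0.00639 when single plates were left out. The slope of Col11a1 turned to 0.17 with file layout, and leaving out plates gave up to 0.23 (P7) and 0.00609 (P42). Without the P42 plate Col5a1 was at -0.0670 and Col5a3 at -0.72. The rank correlation of Col3a1 to Col1a1 was -0.393 in Pdgfra wells, and that of Col5a1 to Col1a1 was 0.714 in Tnmd wells, 0.0714 in Pdgfra wells and 0.536 over medians of wells. Depth limits Col5a3 in Tnmd cells at P18 (36 UMIs) and in Matn1 cells.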
